A study of Mus musculus with 15 samples.

Results

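The genes described here are those that code for the proteins of the cytosolic and of the mitochondrial ribosome, measured in cumulus cells of the mouse, which enclose the oocyte inside its follicle. They were chosen by symbol in the table of log2 values that the authors deposited (symbols built as Rps, Rpl, Rplp or Rpsa for the cytosol, and as Mrps or Mrpl for mitochondria, without the Rps6k kinases), and the probe with the highest mean over the 15 arrays stood for each gene. The rule found 154 of the 15059 different gene symbols of that table, 83 cytosolic and 71 mitochondrial, on 260 of its 20855 probes. All 154 are counted below, and 153 of them passed the filter for testing. The exception is the cytosolic gene Rpl39l.

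Every animal was a B6CBAF1/J mouse, and each stage held 5 arrays, each hybridized with RNA of a pool of several mice. NC1 was the unexpanded cumulus of 3-week-old juveniles, taken from large punctured follicles whose prophase I oocytes can resume meiosis but have little or no developmental competence. C1 was the unexpanded cumulus of 8-week-old adults, with competent prophase I oocytes, and C2 was the expanded cumulus collected in the oviduct from superovulated adults of 8 weeks, with oocytes in metaphase II. Oocytes were removed by pipetting at NC1 and C1, and with hyaluronidase at C2. Stage and age cannot be told apart between NC1 and C1, and from C1 to C2 the stage, the hormones given, the place of collection and the enzyme changed together. The p-values measure only the spread between these pools.

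The cytosolic ribosome translates the mRNAs of the nucleus and is built from a small 40S and a large 60S subunit. Its protein genes are among the most abundantly transcribed in any growing cell, many of their mRNAs start with a tract of pyrimidines (the terminal oligopyrimidine or TOP tract) that couples their translation to the kinase mTOR, and their mRNA levels are known to move together. The mitochondrial ribosome, built from a 28S and a 39S subunit, translates the few mRNAs of the mitochondrial genome, which code for subunits of the respiratory chain, and its protein genes lie scattered in the nuclear genome. In the ovary, cumulus cells pass from the unexpanded state to an expanded, matrix-secreting state at ovulation.

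The starts of the genes illustrate how the sets differ. Promoters of RefSeq (build GRCm38.p6, 250 bases before to 50 bases after the annotated start) were at hand for 122 of the 154 members, 60 cytosolic and 62 mitochondrial, and 12 members had more than 1. A pyrimidine tract, defined as a C at the annotated start followed by at least 4 bases that are C or T, was found in 13 of the 60 cytosolic genes (21.7%), in 0 of the 62 mitochondrial genes and in 3.01% of all 27025 genes of the promoter table. The motif CCGGAAG, known as a site of ETS family factors and searched on both strands, was in 41.7% of cytosolic, 32.3% of mitochondrial and 9.93% of all genes. The E-box CACGTG, the site of Myc and its partners, was in 6 of 60 cytosolic, 4 of 62 mitochondrial and 8.09% of all genes. AAGATGGCG, a form of the YY1 site, was in 6.67%, 9.68% and 1.64%. These motifs may share letters, an annotated start can lie some bases from the start in use, and a match is only a match of letters.

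Windows of 35 bases before and 15 bases from the annotated start are shown for cytosolic genes with a tract (Rps6, Rps18, Rps27, Rpl15 and Rps10), for Rps15 and Rplp0, which have none, and for a number of the mitochondrial genes whose changes are described below. Capitals mark the pyrimidine tract at the start and the motif CCGGAAG, and a window in lower case holds neither. In Rps6, Rps18, Rpl15 and Mrps23 the motif is in the promoter of 300 bases but not whole within the window shown.
Rps6, chr4:86857353-86857402, - strand: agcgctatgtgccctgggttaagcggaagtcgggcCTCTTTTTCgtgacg
Rps18, chr17:33955651-33955700, - strand: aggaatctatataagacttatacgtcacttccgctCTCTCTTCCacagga
Rps27, chr3:90213634-90213683, - strand: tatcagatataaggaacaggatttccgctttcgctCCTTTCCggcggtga
Rpl15, chr14:18270972-18271021, - strand: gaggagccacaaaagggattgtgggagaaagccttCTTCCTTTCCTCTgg
Rps10, chr17:27635230-27635279, - strand: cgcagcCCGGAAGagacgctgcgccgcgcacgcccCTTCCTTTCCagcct
Rps15, chr10:80292396-80292445, + strand: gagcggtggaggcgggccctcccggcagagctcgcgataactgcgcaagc
Rplp0, chr5:115559432-115559481, + strand: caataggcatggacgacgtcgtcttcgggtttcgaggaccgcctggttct
Mrpl44, chr1:79775983-79776032, + strand: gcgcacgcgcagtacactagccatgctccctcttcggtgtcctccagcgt
Mrpl45, chr11:97315681-97315730, + strand: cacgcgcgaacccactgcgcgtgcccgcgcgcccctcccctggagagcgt
Mrps23, chr11:88204353-88204402, + strand: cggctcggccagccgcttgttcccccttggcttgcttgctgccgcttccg
Mrpl40, chr16:18876623-18876672, - strand: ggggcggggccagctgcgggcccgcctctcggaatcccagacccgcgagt
Mrpl43, chr19:45006428-45006477, - strand: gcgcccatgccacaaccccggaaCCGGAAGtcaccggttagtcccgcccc
Mrpl16, chr19:11770380-11770429, + strand: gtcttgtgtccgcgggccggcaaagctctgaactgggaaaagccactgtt
Mrpl23, chr7:142532997-142533046, + strand: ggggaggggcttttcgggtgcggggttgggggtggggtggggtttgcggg
Mrps25, chr6:92184009-92184058, - strand: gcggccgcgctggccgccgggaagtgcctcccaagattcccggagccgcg

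Levels are given as log2 of the scanner's processed intensity minus the median of the array over its 17326 valid probes, so a level of 0 is that of the median valid probe, and valid probes are those read well above background by 4 or more of the 5 arrays in each stage. Levels of different probes were not compared, because probes differ in brightness for reasons other than the amount of RNA, and a change is always a difference of 1 probe between stages. With equal RNA on each array, a change in the number of cells and a change in RNA per cell cannot be told apart. Cytosolic probes were bright (median log2 intensity 16.7, highest 18.3), mitochondrial ones less so (median 12.4), and the median valid probe lay at 10.4. No gene spot was saturated. The standard error of a change had a median of 0.11 in both sets and of 0.15 over all valid probes. Many cytosolic ribosomal protein genes have processed pseudogenes nearly identical to them, so the share of signal from other copies is uncertain for every cytosolic member.

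The labelled cell type was checked with 12 cumulus and granulosa markers, all of which were well above background in at least 1 array at NC1 and at C1. At C2, Kitl was not well above background in any array, and the summed level of the list lay between 6.38 and 6.97, against 8.53 to 9.16 at NC1 and 8.70 to 8.99 at C1. Of the 11 valid markers, 10 fell from C1 to C2 (limma, adjusted p under 0.01), a step at which 22.2% of all valid probes fell and 25.4% rose. The marker list of theca and stroma fell too from C1 to C2, in 5 of 6 valid genes. Its changes ran from -5.51 to -0.22 on the log2 scale with a median of -4.74. The summed level, which the brightest genes dominate, lay between 6.97 and 7.26 at NC1, 6.90 and 7.41 at C1 and 6.65 and 6.88 at C2. Of 6 valid oviduct markers 2 rose and 2 fell from C1 to C2, and 3 rose and 0 fell from NC1 to C2. Over all valid probes 26.5% rose and 24.9% fell from NC1 to C2. The summed level of the oviduct list was highest at C2 without overlap, between 4.64 and 4.92, against 2.66 to 3.01 at NC1 and 2.86 to 3.58 at C1, while Pax8 was not well above background in any array. The oocyte list was lower at C2 on the whole (-0.45 to 4.12, against 3.68 to 5.68 at NC1 and 3.71 to 5.36 at C1), with 0 higher and 1 lower of 4 valid genes from C1 to C2. The leukocyte list ran from 1.88 to 2.78 at NC1, 2.26 to 2.54 at C1 and 2.36 to 3.30 at C2, with 1 higher and 0 lower of 5. The list of red blood cell genes was lower at C1 than at NC1 in 4 of 5 valid genes, against 0.768% of all valid probes. The part of these cell types in the results below was not tested.

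From NC1 to C1, cytosolic ribosomal protein genes were close to level, with 1 exception. Of the 82 tested, 0 rose and 1 fell, a share of 1.22% against 2.52% of all valid probes called at this step, 1.75% higher and 0.768% lower (limma, adjusted p under 0.01). At an adjusted p of 0.05 the count was still 1, against 5.02% of all valid probes. The median change was -0.10 on the log2 scale, against -0.03 over all valid probes, and 72 of the 82 changes were below 0 in this scaling. That direction turned when the arrays were scaled to the spike-in probes, where the cytosolic median was 0.05 and the median of all valid probes 0.13. In both scalings the cytosolic median lay 0.07 below the median of all valid probes, as any scaling by 1 constant per array must give. Under quantile normalization these medians were -0.05 and -0.04. A set of 407 valid probes was at least as bright as the lower quartile of the cytosolic genes and belonged to no ribosomal protein gene. Its median change was -0.08 from NC1 to C1, and 0.491% of it was called. The 95% interval of the change stayed within ±0.5 in 79 of 82 cytosolic genes, against 56.0% of all valid probes. By subunit, the median change was -0.11 over 32 genes of the 40S and -0.09 over 50 genes of the 60S.

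The exception was Rps4y2, a relative of the small subunit gene Rps4x. The accession of its probe belongs to the gene that RefSeq names Rps4l and lists as a transcribed pseudogene, the only member so listed, while the others that matched by accession, 76 cytosolic and 71 mitochondrial, are listed as protein coding. At NC1 its arrays read 1.35, 1.28, 1.89, 1.69 and 1.16. At C1 they read -1.05, -0.89, -0.23, -0.79 and -1.04, and at C2 -0.74, -1.05, -0.81, -0.48 and -0.53. All NC1 arrays lay above all arrays of the other stages, and C1 and C2 overlapped. Rps4y2 fell 4.84-fold from NC1 to C1 (log2 change -2.27 ± 0.17 SE, limma, adjusted p = 4.52e-07) and its change from C1 to C2 was 0.08 (95% interval -0.30 to 0.45). Rps4x itself, whose product is the standard Rps4 protein of the ribosome, changed by -0.14 from NC1 to C1 (95% interval -0.35 to 0.08). The summed level of the red blood cell list moved the same way, from between 6.20 and 8.78 at NC1 to between 3.39 and 5.45 at C1 and between 3.31 and 4.66 at C2, and its part in the level of Rps4y2 was not tested.

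Mitochondrial ribosomal protein genes showed no called change from NC1 to C1. By limma, 0 of 71 passed at an adjusted p of 0.01, against 2.52% of all valid probes. An unadjusted p under 0.05 (limma) was found in 7 of the 71, and in 4 of the 82 cytosolic genes. This count was not made over all valid probes, so it cannot be read as many or few. The median change was 0.02 and the changes ran from -0.25 to 0.35. The gene at the upper end was Mrps23 of the small subunit, at 2.78 ± 0.15 (SD, n = 5) in NC1 and 3.13 ± 0.15 in C1 (limma, adjusted p = 0.0977).

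**Figure D1:**
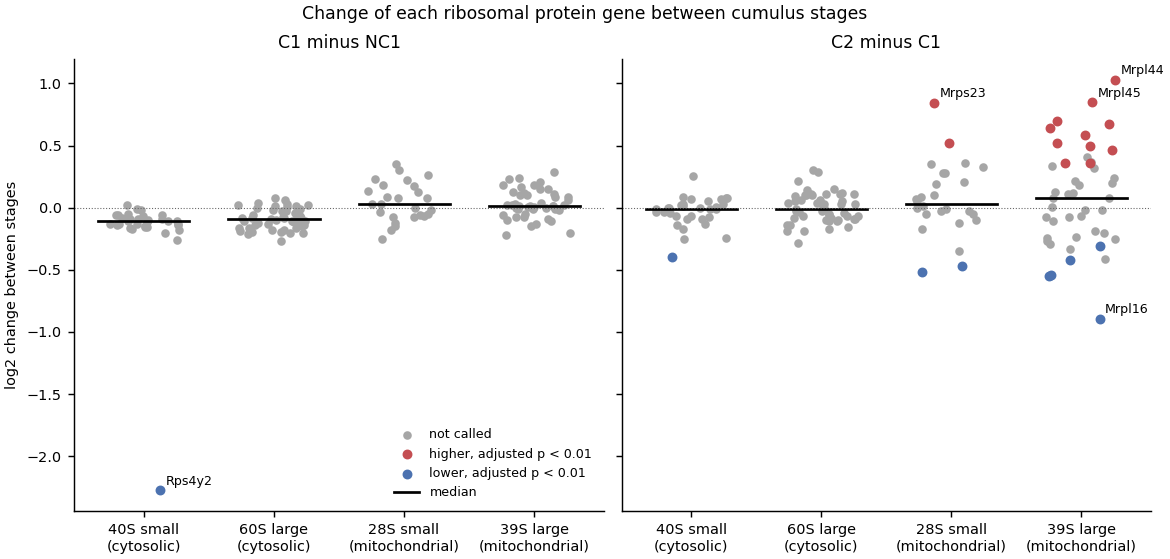
Log2 change of each tested ribosomal protein gene (points) from NC1 to C1 (left) and from C1 to C2 (right), by ribosomal subunit, with the median of each subunit as a bar. Grey points did not pass an adjusted p of 0.01, red points were higher and blue points lower in the later stage. Cytosolic genes stayed near 0 at both steps apart from Rps4y2, and mitochondrial genes spread from -0.90 to 1.03 at the second step.

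From C1 to C2, when the cumulus expanded and 47.6% of all valid probes were called, the cytosolic set lay close to the median of all probes. Of its 82 tested genes 0 rose and 1 fell (1.22%), and the changes ran from -0.40 to 0.30 with a median of -0.01, against 0.02 over all valid probes. The SD of the changes over genes was 0.12, against 0.97 over all valid probes. The 95% interval lay within ±0.5 in 78 of the 82 genes, against 22.4% of all valid probes, and the others were Rps15, Rps21, Rpl23a and Rpl36a. Bright probes were called less often in general. Among the 499 valid probes at least as bright as the lower quartile of the cytosolic genes 14.6% were called, and among the 407 of these that belonged to no ribosomal protein gene 17.2%.

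The gene that fell was Rps15, whose protein sits in the head of the small subunit near the decoding site. Its arrays read 4.78, 4.69, 4.98, 5.14 and 5.14 at NC1. They read 5.03, 4.78, 4.71, 5.00 and 4.73 at C1 and 4.68, 4.53, 4.29, 4.41 and 4.35 at C2. The highest C2 array lay just below the lowest C1 array. The change was -0.40 ± 0.12 SE (limma, adjusted p = 0.00788), a 1.32-fold drop. The call was lost under 12 of 30 alternative settings, 5 of which left out 1 array: C1 replicate 1 or 4, or C2 replicate 3, 4 or 5, with changes between -0.41 and -0.37.

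On the other side, Rplp0, the scaffold of the stalk to which elongation factors bind and a common reference gene, lay just outside the threshold. Its arrays read 7.26, 7.34, 7.40, 7.27 and 7.20 at C1 and 7.49, 7.55, 7.54, 7.75 and 7.60 at C2. These groups did not overlap, while the NC1 arrays, at 7.33, 7.42, 7.65, 7.50 and 7.34, overlapped both. The change from C1 to C2 was 0.29 ± 0.09 SE (limma, adjusted p = 0.0118). Its other valid probes rose by 0.38 and 0.29 and passed (limma, adjusted p = 0.00101 and 0.00772).

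Several cytosolic members are in wide use as reference genes for normalization. Of the 10 reference genes listed, 9 cytosolic and Mrpl19, 0 were called at any of the 3 comparisons in this scaling. Over all valid probes 2.52% (NC1 to C1), 47.6% (C1 to C2) and 51.4% (NC1 to C2) were called. Rplp0 was called higher from C1 to C2 under 8 of 30 alternative settings. From NC1 to C2, Rpl4 and Rps13 were called lower under quantile normalization, and Rpl13a was called higher with the mean over its probes. From C1 to C2 the changes of the 10 genes ran from -0.10 to 0.29, with Rplp0 at the top. Rps18, a protein of the 40S head, changed by -0.00 (95% interval -0.21 to 0.21). Rpl19 changed by 0.10 (95% interval -0.11 to 0.30) and Rpl13a by -0.04 (95% interval -0.26 to 0.18). Rpl32 changed by 0.03 (95% interval -0.21 to 0.27), Rpl4 by -0.03, Rpl27 by -0.10, Rps29 by 0.03 and Rps13 by 0.00. These intervals depend on the scaling, since each centring moves every gene by the same amount.

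A further group of cytosolic proteins is known to bind Mdm2, the ubiquitin ligase of p53, when not built into ribosomes. Of the 6 listed (Rpl5, Rpl11, Rpl23, Rps3, Rps7 and Rps14) 0 were called from C1 to C2, against 47.6% of all valid probes, with changes between -0.19 and 0.11. Under quantile normalization Rpl5 was called lower at this step. Rpl5, which carries the 5S rRNA into the large subunit together with Rpl11, had means of 5.07 ± 0.05 in NC1, 4.87 ± 0.14 in C1 and 4.76 ± 0.08 in C2 (SD over 5 arrays). Its change from NC1 to C2 passed (-0.31 ± 0.09 SE, limma, adjusted p = 0.00528), and the call was lost under 8 of 30 alternative settings, among them leaving out NC1 replicate 4 (-0.29) or C2 replicate 5 (-0.31). Its changes at the 2 successive steps, -0.20 and -0.11, did not pass. Rpl11 changed by -0.19 from C1 to C2 (95% interval -0.42 to 0.04).

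Paralogs of ribosomal proteins, some of which replace the standard protein in particular tissues, were listed beside the genes they resemble. Among the 14 valid genes of that list 0 were called from C1 to C2 in this scaling, against 47.6% of all valid probes. Rpl22 was called lower with the mean over its probes, and Rpl36a under quantile normalization. Rpl22 changed by -0.09 ± 0.13 SE and Rpl22l1, its paralog, by 0.06 ± 0.17. Rps27 changed by -0.01 ± 0.11 and Rps27l, a paralog known as a target of p53, by -0.09 ± 0.12. Rpl36a changed by -0.28 ± 0.14 and Rpl36al by 0.15 ± 0.13, and Rpl7l1 by 0.22 ± 0.10. None of these changes passed the test, and the changes were not tested against each other.

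Rpl39l, the paralog of Rpl39 known from the testis, was the member that failed the filter. It was well above background in 4 arrays at NC1, in 3 at C1 and in 0 at C2. Its readings were -3.07, -3.02, -4.27, -4.77 and -4.40 at NC1, -2.92, -4.11, -3.45, -4.37 and -5.14 at C1 and -7.56, -7.18, -6.42, -7.12 and -6.72 at C2. Every C2 reading was below every earlier one. Taking the lowest signal that is well above background as the limit at C2, Rpl39l was at least 1.73-fold higher at C1 and at least 1.85-fold higher at NC1. It had no place in the test of valid probes. Where probes present in at least 1 stage were tested, Rpl39l entered only through NC1, a stage where it was high. It was called lower from C1 to C2 there, but this call rests on C2 readings at background and gives no size. Rpl39 changed by -0.01 (95% interval -0.31 to 0.29) from C1 to C2.

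**Figure D2:**
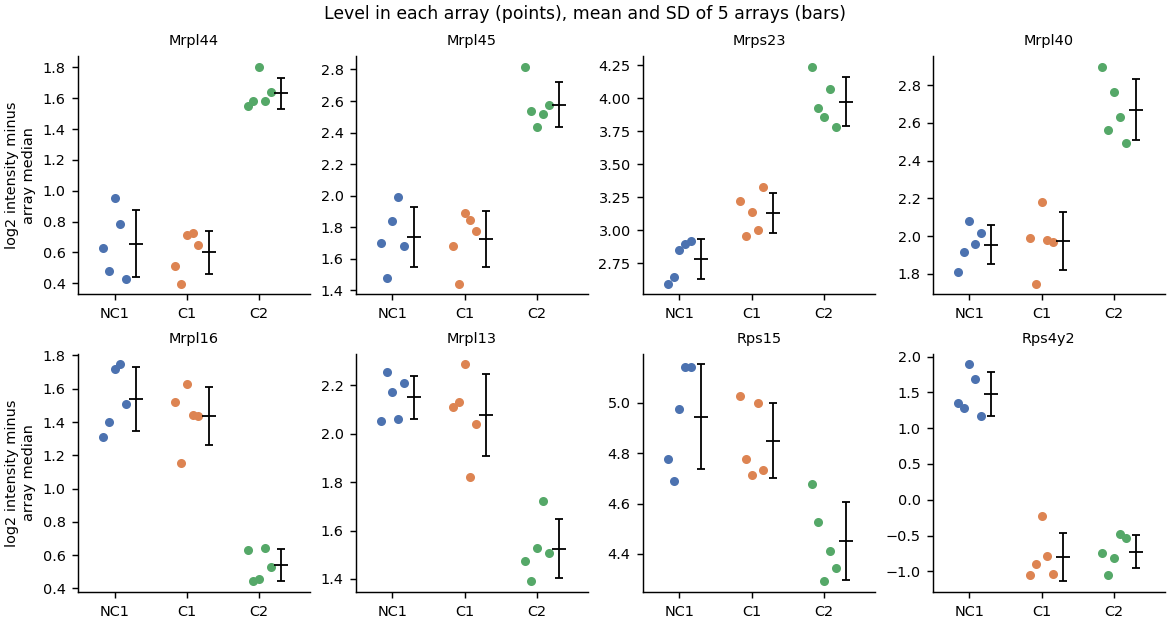
Level of 8 ribosomal protein genes in each of the 15 arrays (points, log2 intensity minus the array median) at NC1, C1 and C2, with the mean and SD of 5 arrays as bars; each panel has its own axis. In Mrpl44, Mrpl45, Mrps23 and Mrpl40 every C2 array lies above every C1 array, in Mrpl16, Mrpl13 and Rps15 below, and Rps4y2 drops between NC1 and C1.

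At the same step the mitochondrial set held changes in both directions. Of its 71 genes, 13 rose and 7 fell from C1 to C2 in this scaling, and 17 and 0 when arrays were centred on all gene probes. That centring gave 5301 higher and 1795 lower over all 17326 valid probes, against 4402 and 3853 in this scaling. The 20 called in this scaling made up 28.2%, against 25.4% higher and 22.2% lower among all valid probes. A smaller share of the set was thus called than of the array as a whole. At an adjusted p of 0.05 the count was 33, and 4 for the cytosolic set, against 58.4% of all valid probes. The changes ran from -0.90 to 1.03 with a median of 0.07 and an SD over genes of 0.37, and the 95% interval lay within ±0.5 in 36 of 71 genes. The groups did not overlap in 15 genes upwards and 8 downwards, 32.4% against 43.9% of all valid probes. The large subunit held most of the calls, with 11 higher and 5 lower of 45, against 2 higher and 2 lower of 26 in the small subunit. The median change was 0.08 for the 39S and 0.03 for the 28S. Whether the subunits differ was not tested.

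The gene that rose most was Mrpl44, a protein of the large subunit related to RNase III. Its arrays read 0.63, 0.48, 0.96, 0.79 and 0.43 at NC1 and 0.51, 0.40, 0.71, 0.73 and 0.65 at C1. At C2 they read 1.55, 1.58, 1.80, 1.58 and 1.64. The C2 arrays stood clear of all others, and the earlier stages overlapped. The rise from C1 to C2 was 2.04-fold (log2 change 1.03 ± 0.11 SE, limma, adjusted p = 7.73e-07).

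Mrpl45, which lies near the exit of the nascent chain and links the mitochondrial ribosome to the inner membrane, read 1.68, 1.44, 1.89, 1.85 and 1.78 at C1 and 2.82, 2.54, 2.44, 2.52 and 2.57 at C2, after 1.70, 1.48, 1.84, 1.99 and 1.68 at NC1. Its lowest C2 array was well above its highest earlier array, and it rose 1.8-fold (0.85 ± 0.12 SE, limma, adjusted p = 9.96e-06). Mrps23, of the small subunit, read 2.60, 2.65, 2.85, 2.90 and 2.92 at NC1, 3.22, 2.96, 3.14, 3.00 and 3.33 at C1 and 4.24, 3.93, 3.86, 4.07 and 3.78 at C2. The 3 stages of Mrps23 did not overlap, and it rose 1.8-fold from C1 to C2 (0.85 ± 0.11 SE, limma, adjusted p = 7.06e-06).

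Mrpl40, another protein of the 39S, read 1.99, 1.75, 2.18, 1.98 and 1.97 at C1 and 2.90, 2.56, 2.77, 2.63 and 2.49 at C2, with NC1 arrays at 1.81, 1.91, 2.08, 1.96 and 2.02. Again the C2 arrays did not overlap with the rest, and the change was 0.70 ± 0.10 SE (limma, adjusted p = 2.47e-05). Mrpl43 went from 3.01 ± 0.18 at C1 to 3.66 ± 0.09 at C2 (SD, n = 5), without overlap. Mrpl1, the mitochondrial counterpart of the protein of the L1 stalk, went from -1.83 ± 0.46 to -1.15 ± 0.20 with overlapping groups, and its call (0.68 ± 0.18 SE, limma, adjusted p = 0.00408) was lost under 9 of 30 alternative settings. Without C1 replicate 4, the lowest array of Mrpl1, the change was 0.52 and not called. The call was also lost without C1 replicate 1 or 5 or without C2 replicate 1, 3 or 4, at changes between 0.62 and 0.64.

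The other genes that rose did so by less. They were Mrpl53 (0.59), Mrpl50 (0.52), Mrps9 (0.52), Mrpl27 (0.50), Mrpl24 (0.47), Mrpl34 (0.36) and Mrpl51 (0.36), each on the log2 scale and with groups that did not overlap. The call of Mrpl34 was lost under 13 of 30 alternative settings, among them leaving out C1 replicate 2, 3 or 4 or any C2 replicate, at changes between 0.30 and 0.36, and that of Mrpl51 under 4, among them leaving out C2 replicate 3 (0.31). Mrps9, Mrpl27, Mrpl24 and Mrpl34 have counterparts in the bacterial ribosome, while Mrpl53, Mrpl50 and Mrpl51 belong to the proteins particular to the mitochondrial one. Genes of both origins thus stood among those that rose.

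Mrpl16, the counterpart of a bacterial protein that lies by the tRNA sites of the large subunit, was the gene that fell most. Its arrays read 1.31, 1.40, 1.72, 1.75 and 1.51 at NC1 and 1.52, 1.15, 1.63, 1.44 and 1.44 at C1. At C2 they read 0.63, 0.44, 0.46, 0.64 and 0.53. All C2 arrays lay below all others, a 1.86-fold drop from C1 (-0.90 ± 0.11 SE, limma, adjusted p = 3.6e-06). With arrays centred on all gene probes the change was -0.59 and not called.

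Mrpl13, an early-assembling protein in bacteria, read 2.11, 2.13, 2.28, 1.82 and 2.04 at C1 and 1.47, 1.39, 1.53, 1.72 and 1.51 at C2. The highest C2 array was below the lowest C1 array, and the change was -0.55 ± 0.10 SE (limma, adjusted p = 0.000168). Mrpl23, whose bacterial counterpart lies at the tunnel exit, read 4.37, 4.20, 4.53, 4.40 and 4.34 at C1 and 4.11, 3.85, 3.82, 3.65 and 3.69 at C2. These groups did not overlap, with a change of -0.54 ± 0.12 SE (limma, adjusted p = 0.00085). Mrps25, of the small subunit, read 2.83, 2.41, 2.69, 2.53 and 2.66 at C1 and 2.19, 1.99, 2.13, 2.17 and 2.05 at C2, without overlap, and fell by 0.52 on the log2 scale (SE 0.11, limma, adjusted p = 0.00046). A second, dimmer probe of Mrps25 changed by 0.00 ± 0.11 SE, so the gene's drop rests on 1 of its probes.

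The remaining genes that fell were Mrps27 (-0.47), Mrpl47 (-0.42) and Mrpl48 (-0.31). Mrps27 overlapped between C1 and C2 and its call was lost under 15 of 30 alternative settings, among them leaving out C1 replicate 1, 2 or 5 or C2 replicate 3, 4 or 5, at changes between -0.48 and -0.43. Mrpl47 lost its call under 10 of 30, among them leaving out C1 replicate 2 or 3 or C2 replicate 2, at changes between -0.41 and -0.37. Mrpl48 lost its call under 19 of 30, among them leaving out NC1 replicate 2 or 4, C1 replicate 1, 2, 3 or 5, or C2 replicate 2, 3, 4 or 5, at changes between -0.34 and -0.30, and its change was 0.00 when arrays were centred on all gene probes.

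Between NC1 and C2, a comparison that shares its arrays with the steps above, 51.4% of all valid probes were called, 26.5% higher and 24.9% lower. The cytosolic set held 0 higher and 3 lower of 82 (Rps4y2, Rps15 and Rpl5), with a median change of -0.12, and the mitochondrial set 16 higher and 8 lower of 71, with a median of 0.13, in this scaling. Among the 407 bright probes that belonged to no ribosomal protein gene 24.8% were called, and their median change was -0.07. With arrays centred on all gene probes the cytosolic median turned to 0.08, with 0 higher and 1 lower, and the mitochondrial counts were 16 and 1. The median of all valid probes was 0.19 there, with 4666 higher and 2477 lower of 17326. Under quantile normalization the counts were 0 and 15 for the cytosolic and 12 and 14 for the mitochondrial set, and 4565 and 4489 over all valid probes. Without C2 replicate 1 the cytosolic count was 6. The largest rise was that of Mrps23 (1.19 ± 0.11 SE, limma, adjusted p = 1.09e-07), followed by Mrpl44 (0.97), and the largest drop among mitochondrial genes was again that of Mrpl16.

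Per array, the medians of the sets were compared to see whether cytosolic and mitochondrial genes moved apart. The cytosolic median over 82 genes was 6.33 ± 0.06 in NC1, 6.19 ± 0.10 in C1 and 6.15 ± 0.11 in C2 (SD over 5 arrays). The mitochondrial median was 2.04 ± 0.10, 1.96 ± 0.14 and 2.04 ± 0.10. Their difference within an array, on which a centring of arrays has no effect, was 4.29 ± 0.06 in NC1 (4.23 to 4.40), 4.23 ± 0.15 in C1 (4.06 to 4.44) and 4.11 ± 0.13 in C2 (3.96 to 4.26). The stages overlapped in each of the 3 pairs. The arrays lay on 4 slides, each with all stages, and within slides the difference between C2 and C1 was -0.09, 0.09, -0.20 and -0.13. Between C1 and NC1 it was -0.05, -0.19, 0.01 and -0.17. At both steps the sign thus differed between slides. From NC1 to C2, over both steps, it was -0.14, -0.10, -0.18 and -0.30, below 0 on every slide. Under normexp background correction the difference was 4.26 in NC1, 4.14 in C1 and 4.24 in C2, so that its fall from C1 to C2 became a rise.

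**Figure D3:**
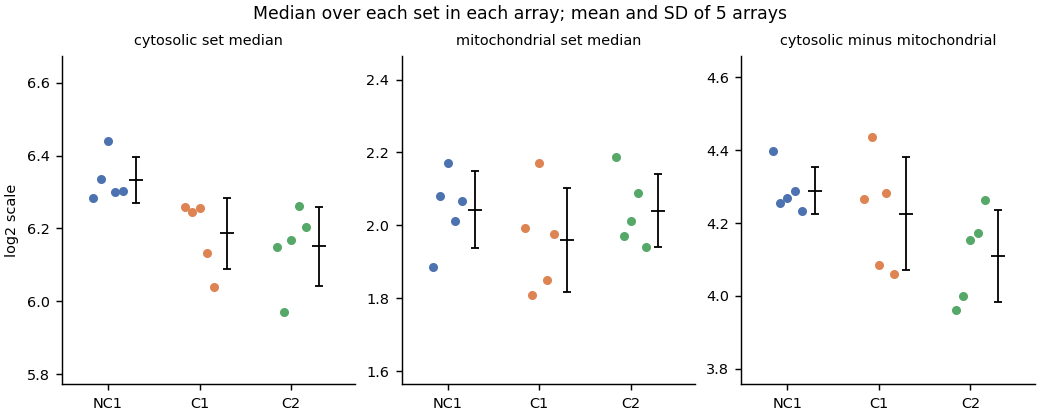
Median level over the 82 cytosolic genes (left) and the 71 mitochondrial genes (middle) in each array, and the difference of these medians (right), on the log2 scale, with the mean and SD of 5 arrays as bars. The mean difference was 4.29 (NC1), 4.23 (C1) and 4.11 (C2), and the points of the stages overlap.

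The counts depended on how arrays were brought to 1 scale, because 1 constant per array decides where 0 lies. When each array was centred on the median of all gene probes, whether above background or not, the median of all valid probes moved to 0.33 from C1 to C2, and under the spike-in probes it moved to -0.13. Under the first of these the cytosolic count at this step was 1 higher and 0 lower, and the mitochondrial count 17 higher and 0 lower. The deposited table centres the arrays in nearly the same way, so it had to give the same counts. Under the 75th percentile the counts were 1 and 0 for the cytosolic and 14 and 5 for the mitochondrial set, under quantile normalization 1 and 5 and 11 and 11, and under normexp background correction 0 and 0 and 14 and 5. Scaled to the 7 spike-in probes the cytosolic counts were 0 and 0 and the mitochondrial ones 0 and 1, and the median standard error of a mitochondrial change was 0.27 in place of 0.11. Over all 17326 valid probes, 4402 were higher and 3853 lower in the scaling used, and 5301 and 1795 when centred on all gene probes. These counts were 4556 and 3663 under the 75th percentile, 4470 and 3939 under quantile normalization and 4153 and 3548 under normexp. Under the spike-in probes 1712 were higher and 2692 lower. Relative to all valid probes, the cytosolic median lay 0.03 lower and the mitochondrial median 0.05 higher under every scaling by 1 constant. Under quantile normalization these values were 0.15 lower and 0.05 lower. The split of the 20 mitochondrial calls into higher and lower thus holds for the scaling used and not for all of them. Of the 20 called genes Mrpl48 turned its sign. Scaled to the spike-in probes Mrpl44 changed by 0.88, Mrpl45 by 0.70 and Mrps23 by 0.69, none of them called, and centred on all gene probes Mrpl13 changed by -0.24, Mrpl23 by -0.24 and Mrps25 by -0.21, none of them called.

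**Figure D4:**
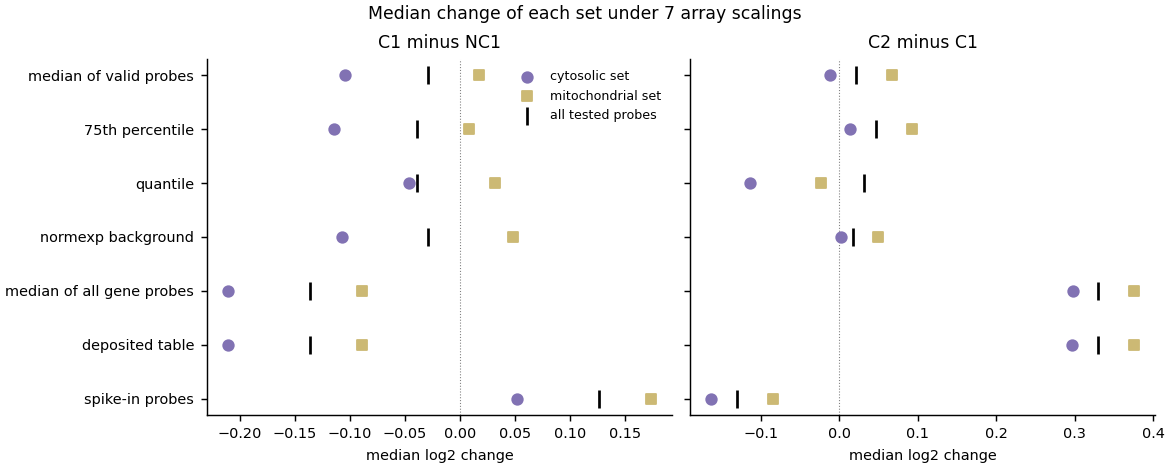
Median log2 change of the cytosolic set (circles), the mitochondrial set (squares) and all tested probes (black ticks) from NC1 to C1 (left) and from C1 to C2 (right), under 7 ways of scaling the arrays; the axes of the panels differ. From C1 to C2 the cytosolic median runs from -0.16 with spike-in probes to 0.30 with the median of all gene probes, and the tick of all probes moves with it except under quantile normalization, where the cytosolic median is -0.11 and that of all probes 0.03.

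Genes with several probes allowed a check within the gene. Of the cytosolic genes 52, and of the mitochondrial genes 19, had more than 1 valid probe. From C1 to C2 the probes of a gene differed by a median of 0.08 in either set, and 8 cytosolic and 3 mitochondrial genes had probes of which only some were called. No gene had probes called in both directions. Over all 168 valid cytosolic probes 5 were higher and 6 lower, against 1 call on the chosen probes.

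The clearest such case among bright probes was Rps24, a protein of the small subunit whose transcripts are known to differ by short exons near their end. Its valid probes are listed under different RefSeq transcripts. The probe chosen for it (log2 intensity 17.5) changed by 0.03 ± 0.12 SE from C1 to C2. An equally bright probe, listed under another transcript, read 7.28, 7.27, 7.52, 7.02 and 7.01 at C1 and 6.70, 6.49, 6.50, 6.72 and 6.62 at C2. No C2 array of this probe reached a C1 array, and the change was -0.62 ± 0.11 SE (limma, adjusted p = 0.00011). The third, dimmer probe changed by 0.09. Amounts of single transcripts cannot be read from these probes, and whether they bind other copies was not tested.

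Other genes showed the same kind of split on probes dimmer than the chosen one. A second probe of Rpl13a rose by 0.67 (limma, adjusted p = 0.000112), while its chosen probe changed by -0.04. In Rpl22 the second probe changed by -0.94 (limma, adjusted p = 1.12e-05), and in Rpl23 the dimmest probe by 0.60. A dim probe of Rpl30 changed by -0.54, at a log2 intensity of 10.1. Rpl23a, whose chosen probe changed by 0.30, had a second probe at 0.35. Taking the mean over all probes of a gene, 1 cytosolic gene was higher and 3 were lower from C1 to C2.

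**Figure D5:**
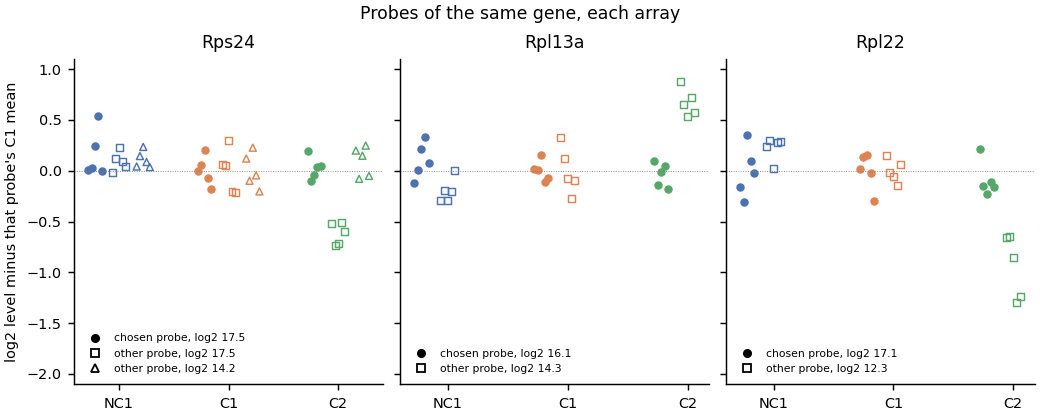
Level of each valid probe of Rps24, Rpl13a and Rpl22 in each array, relative to that probe's mean at C1 (log2 scale), at NC1, C1 and C2. Filled points are the probe chosen for the gene and open points its other probes, with the mean log2 intensity of each probe in the legend. At C2 a probe of Rps24 and of Rpl22 lies below the chosen probe, and a probe of Rpl13a above it.

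Genes that serve the ribosome were counted from lists outside the naming rule. Fau and Gnb2l1, cytosolic ribosomal proteins that the rule does not reach, changed by 0.20 and 0.04 from C1 to C2, and neither was called. Of 10 mitochondrial ribosomal proteins named otherwise 1 was called, Ptcd3 of the small subunit, which fell by 0.78 on the log2 scale (SE 0.10, limma, adjusted p = 4.72e-06). At this step 47.6% of all valid probes were called. From NC1 to C1, 0 genes were called in these 2 lists and in the 4 that follow, again with 2.52% called over all valid probes.

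Factors that build the cytosolic ribosome in the nucleolus included 3 genes called higher and 9 called lower from C1 to C2, of 50 valid genes, with a median change of -0.20, where 25.4% of all valid probes were higher and 22.2% lower. Centred on all gene probes the list held 4 higher and 1 lower with a median of 0.11, so the sign of its median turned with the scaling. The median of all valid probes was 0.02 in the scaling used and 0.33 under that centring, where 5301 were higher and 1795 lower. In both scalings the list's median lay below that of all valid probes. Nop56, a core protein of the box C/D particles that guide rRNA methylation, fell from 4.42 ± 0.28 to 3.11 ± 0.25 (SD, n = 5). The change was -1.31 ± 0.16 SE (limma, adjusted p = 2.83e-06). Heatr1, a component of the processome of the small subunit, changed by -0.80 and Nop10, of the box H/ACA particles that guide pseudouridylation, by -0.66. Sbds, which acts in a late step of 60S maturation, rose by 1.33 ± 0.10 (limma, adjusted p = 1.3e-08). Ltv1, an assembly factor of the 40S, rose by 0.43, and Taf1c, a subunit of the promoter factor of RNA polymerase I, by 0.38, with calls lost under 8 and 12 of 30 alternative settings. Among these were, for Ltv1, leaving out C1 replicate 2 or 5 or C2 replicate 4 or 5 (0.35 to 0.39) and, for Taf1c, leaving out C1 replicate 1, 2 or 3 or C2 replicate 1, 2, 3 or 5 (0.30 to 0.38).

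Factors that work on the assembled ribosome included 17 genes called higher and 0 called lower from C1 to C2, of 44 translation factors, with a median change of 0.31, beside the same 25.4% higher and 22.2% lower over all valid probes. The median stayed above 0 under the other scalings, between 0.15 and 0.61, with 3 higher and 0 lower under the spike-in probes and 10 higher and 5 lower under quantile normalization. Over all 17326 valid probes these 2 scalings gave 1712 higher and 2692 lower, and 4470 higher and 3939 lower. Eif4b, a helper of the helicase that unwinds the mRNA leader, went from 2.23 ± 0.29 to 3.90 ± 0.20 (SD, n = 5), a change of 1.67 ± 0.15 SE (limma, adjusted p = 1.21e-07). Eif4h, related in function, rose by 1.13 and Eif1, which guards the choice of the start codon, by 1.05. In all of these the C2 arrays lay above the C1 arrays.

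Of 21 valid regulators of ribosome synthesis and of mTOR signalling, 7 were higher and 3 lower at C2 than at C1, with 8 and 2 when arrays were centred on all gene probes and 1 and 2 under the spike-in probes. Over all 17326 valid probes the latter scalings gave 5301 higher and 1795 lower, and 1712 higher and 2692 lower. The 10 called in the scaling used made up 47.6% of the list, the share called over all valid probes. Eif4ebp1, a repressor of cap-dependent translation that mTOR phosphorylates, rose by 1.27 ± 0.11 SE (limma, adjusted p = 6.94e-08). Myc, an activator of ribosomal genes, rose by 0.93, and Mxd1, an opponent of Myc, by 1.01. Mycn, a relative of Myc, changed by -1.37 and Mxd3 by -2.39. Sesn1, an inhibitor of mTOR signalling, changed by -0.50, and its call was lost under 20 of 30 alternative settings, among them leaving out NC1 replicate 1, 2 or 5, C1 replicate 2, 3 or 5, or C2 replicate 1, 2 or 3 (-0.52 to -0.38). Without C1 replicate 2 it was called lower from NC1 to C1 (-0.62).

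Among 44 valid genes of mitochondrial translation and its upstream factors, 10 rose and 10 fell from C1 to C2, and 10 and 2 when arrays were centred on all gene probes. Over all valid probes 25.4% rose and 22.2% fell in the scaling used, and centred on all gene probes 5301 rose and 1795 fell of 17326. Ddx28, a helicase needed to assemble the 39S, went from -0.39 ± 0.14 to 1.23 ± 0.10 (SD, n = 5), a change of 1.62 ± 0.10 SE (limma, adjusted p = 1.31e-09). Esrra and Gabpa, transcription factors of nuclear genes for mitochondria, rose by 1.37 and 1.19. Gabpa belongs to the ETS family named above for CCGGAAG, and whether it acts on any member was not tested. The genes with the largest drops were aminoacyl-tRNA synthetases of mitochondria, Aars2 (-1.37), Yars2 (-1.01) and Vars2 (-0.93).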

How the data were processed

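Cumulus RNA of 15 pools, 5 per stage, was labelled with Cy3 and hybridized to 1-colour Agilent arrays. The authors deposited the scanner output, in which Feature Extraction (10.7.1.1 in the file headers, 10.5.1.1 in the submitters' processing notes) gives a background-subtracted intensity per spot, not scaled between arrays. A second deposited file holds log2 values, in which each array's column equalled the log2 intensity plus 1 constant per array (SD of the difference over probes at most 0.0082). It served to choose the members and as an alternative scaling. The number of arrays and the signal over background limit the precision.

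Spots of a probe were averaged without control spots and outlier flags, log2 was taken and each array's median over its 17326 valid probes was subtracted. These values had 20 missing cells. Stages were compared with limma (3.58.1, R 4.3.3), with 1 model over the 15 arrays, two-sided tests and Benjamini-Hochberg adjustment over all valid probes at 0.01, the threshold of the study. The fit was tested on simulated data. Named genes were the 6 highest and 6 lowest called members of each set at each successive step, all members of the paralog, reference gene and Mdm2 lists, and up to 3 genes in each direction from the other lists. Further members and probes were named after their values were seen. The members and lists were chosen with earlier results of these data known.

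The 30 alternatives were other scalings, filters, blocks, thresholds and leaving out each array. Among them the deposited table and the median over all gene probes are nearly the same scaling, counted separately. Normexp (offset 50) was run on the median signal of the spots and their background, because the mean signal was not among the columns used here. Of the 154 members, 147 matched a RefSeq gene of the same symbol by accession, 1 another symbol and 6 none. Promoter sequences are from RefSeq, build GRCm38.p6. No probe sequences or genome were used here, and a few genes are not reported here by name.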

Additional observations from a re-analysis of the deposited data

Results flagged for a closer look

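Of 165 sets of 5 arrays, those of the named members and of the medians of the sets, 4 held 1 array far from the other 4, with a gap above Dixon's critical value of 0.71 of the range. Chance gives about 1 in 20 such sets. Rpl22 read 6.90 in C2 replicate 1, with the other C2 arrays between 6.45 and 6.58. Rpl3 read 6.27 in C2 replicate 4, with the others between 6.03 and 6.08. In NC1 replicate 3, Rpl32 read 7.06, with the others between 6.64 and 6.76, and Rpl27 read 6.99, with the others between 6.45 and 6.56. None of these genes was called at any comparison on its chosen probe, and the cause was not tested.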

How the results depend on the processing

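From NC1 to C1 the counts, 1 cytosolic and 0 mitochondrial, were the same under all 30 alternatives. From C1 to C2 the cytosolic count, 1 of 82, was 6 under quantile normalization, 4 with the mean over the probes of a gene, 4 at an adjusted p of 0.05 (58.4% of all valid probes), 2 with probes present in at least 1 stage (Rpl39l, at background in C2, was added), 2 without variance moderation, 0 with the spike-in probes and 0 under normexp. It was 0 with the replicate number as a block. Leaving out 1 array gave 0 to 2: 2 without NC1 replicate 3 or C2 replicate 2, and 0 without C1 replicate 1 or 4 or C2 replicate 3, 4 or 5. The mitochondrial count, 20 of 71, was 33 at an adjusted p of 0.05 and 1 with the spike-in probes, and 15 to 22 without 1 array. With the spike-in probes 1712 of the 17326 valid probes were still higher and 2692 lower. From NC1 to C2 the cytosolic count, 3, was 15 under quantile normalization, 11 at 0.05 (62.0% of all valid probes), 7 with the mean over probes, 5 without moderation, and 1 with the median over all gene probes, with the deposited table and with the spike-in probes. Without 1 array it was 2 to 6. The mitochondrial count, 24, was 3 with the spike-in probes and 18 to 27 without 1 array. At this comparison 2688 of all valid probes were higher and 2470 lower with the spike-in probes. The difference between the median changes of the sets (the median over genes of each gene's change) kept its sign under all alternatives, from -0.16 to -0.08 (NC1 to C1), -0.09 to -0.03 (C1 to C2) and -0.30 to -0.21 (NC1 to C2). Several alternatives cannot move this difference and say nothing of its sign. These are the scalings by 1 constant per array, the other threshold, no moderation, only the stages compared and the replicate block. The difference of the per-array medians turned from a fall to a rise between C1 (4.14) and C2 (4.24) under normexp. Among single genes, Mrpl48 changed by 0.00 from C1 to C2 with the median over all gene probes (0.000584) and with the deposited table (0.000100), and Rpl13a rose by 0.36 from NC1 to C2 with the mean over its probes. Mrpl48 and Rpl13a were the only named genes with a reversal. Apart from the larger standard error under the spike-in probes given above, the cause was not tested.

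Replicate numbers are not known to pair arrays of different stages. Same-numbered arrays had deviations that correlated between -0.24 and 0.35, over 0.1 in 4 of 15 pairs. Between NC1 and C1, replicates 2, 4 and 5 correlated at 0.35, 0.34 and 0.34, and replicates 1 and 3 at 0.08 and 0.05. Arrays of different numbers were not compared, so a pairing was not tested. With 5 arrays per stage and a median standard error of 0.11, the smallest change called among members from C1 to C2 was -0.31 (Mrpl48).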
